A study of Mus musculus with 9 samples.

Results

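The cytosolic ribosomal protein genes were taken as all rows of the gene table whose symbol is Rpl or Rps with a number and an optional a, x or l, together with Rplp0, Rplp1, Rplp2 and Rpsa. Kinase genes of the Rps6k type and pseudogene symbols were left out. This rule found 81 of 24060 named genes: 46 genes of the large subunit, 30 of the small subunit and 5 paralog copies (Rpl3l, Rpl10l, Rpl39l, Rps27l and Rps4l). The 76 genes other than the copies are called the core members. RNA was sequenced from LSKs, the Lin−Sca1+Kit+ marrow fraction that holds haematopoietic stem cells and multipotent progenitors, in 3 control, 2 NHD13 and 4 NHD13/MSI2 libraries. NHD13 cells carry the NUP98-HOXD13 fusion transgene, which the Vav promoter drives in blood cells and which models myelodysplastic syndrome. NHD13/MSI2 cells carry it together with KH2-Col1A1-tet-on-MSI2/ROSA26-rtTA, from which doxycycline induces MSI2, an RNA-binding protein. Donor marrow was C57BL/6 and was transplanted with helper marrow cells into lethally irradiated CD45.1 recipients, and the LSKs were profiled after 3 months of doxycycline feeding. The labels give an age of 4 months for every library. They do not say whether replicates came from separate mice, so the tests below measure the spread between libraries, which may be in part technical. All 9 are labelled LSK, but the library name of control replicate 1 includes Bulk, whereas the names of the other 2 controls include MPP_HSC. Control replicates 1 and 3 had high Xist and almost no Y-linked counts, whereas the other 7 libraries had the reverse. Each comparison with control thus also compares unlike mixtures of male and female cells. Of the Y-linked genes, Ddx3y had 3737 and 5057 counts in NHD13 but 74, 120, 389 and 85 in NHD13/MSI2 replicates 1 to 4. Uty, Eif2s3y and Kdm5d showed no such gap.

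A ribosome is built from a small subunit, which reads the mRNA, and a large subunit, which joins the amino acids, and each subunit takes 1 copy of nearly every one of its proteins. In blood, loss of a single allele of genes such as RPS19, RPL5 or RPL11 causes Diamond-Blackfan anaemia, and RPS14 lies in the segment of human chromosome 5q that is lost in a subtype of myelodysplastic syndrome. Messages for ribosomal proteins typically begin with a cytosine and a run of pyrimidines, the 5′ terminal oligopyrimidine (TOP) tract, through which their translation is switched together by mTOR signalling.

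A start window in the RefSeq promoter table (GRCm38.p6) was found for 60 of the 81 genes, 56 of them core members. A cytosine followed by at least 4 pyrimidines stood at an annotated start in 13 of these 56 (23.2%), compared with 3.01% of 27025 genes. Within 5 bases of a start, the same motif was found for 27 of the 56 (48.2%) and 21.2% of all genes. The annotated start need not be the one used in LSKs. The windows below run from 10 bases before the first listed start to 20 bases from it, with the pyrimidine run at the start in capitals. Rps10, Rplp2 and Rps6 are shown as members with a tract that were low in 1 library described below. Rpl35 has a tract and was not low there, and Rpl5 and Rps25 have no tract at this start and were not low either. Rpl10, Rpl4 and Rpl9 are the core members that differed between groups once that library was left out. They have no tract at this start and were low there too, at 24.9%, 62.8% and 28.9% of the mean of the other libraries of its group. Members with and without a tract were both low there, with medians of 27.9% and 34.3%.
Rps10, chr17:27635225-27635254, minus strand: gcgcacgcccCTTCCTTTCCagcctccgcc
Rplp2, chr7:141447641-141447670, plus strand: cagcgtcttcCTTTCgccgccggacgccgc
Rps6, chr4:86857348-86857377, minus strand: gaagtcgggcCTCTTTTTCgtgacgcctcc
Rpl35, chr2:39005112-39005141, minus strand: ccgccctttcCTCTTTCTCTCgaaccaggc
Rpl5, chr5:107900518-107900547, plus strand: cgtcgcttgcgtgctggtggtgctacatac
Rps25, chr9:44407704-44407733, plus strand: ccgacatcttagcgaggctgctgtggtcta
Rpl10, chrX:74270806-74270835, plus strand: tacagtggaagataggccgcctatataagg
Rpl4, chr9:64173377-64173406, plus strand: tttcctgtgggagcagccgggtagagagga
Rpl9, chr5:65391412-65391441, minus strand: gggccctgacggattacaagaacgtgatga

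Levels are given as CPM, the counts of a gene relative to the library total on the usual scale, with TMM scaling. The core members were abundant, with a median control level of 333 CPM, above that of 96.8% of the 13355 genes tested, and 71 of the 76 had a control mean of at least 100 CPM. Per kilobase of the principal transcript, the highest control levels were those of Rpl4 (2240 CPM per kb), Rpl32 (1791 CPM per kb) and Rps14 (1605 CPM per kb), and the lowest core levels were those of Rpl30 (7.78 CPM per kb), Rpl26 (12.6 CPM per kb) and Rpl34 (37.5 CPM per kb). Many members have processed pseudogenes of almost the same sequence, to which reads can be lost. In 39 core members, 50% or more of the 50-base words of the transcript were also present in transcripts of another gene, and the core median was 51.5%. Of the members named as lowest, the share was 79.2% for Rpl30 and 61.0% for Rpl26, but 37.9% for Rpl34. It was 98.7% for Rps27, whose control mean was 15.5 CPM. Levels of genes with a high share are uncertain. Across the core members, Spearman's rho of the level per length with the share of shared words was −0.01 (76 genes, which are not independent). A long transcript can lower both measures, as in Rps15a (5179 bases, 6.37% of words shared), which could hide a relation between them. The loss of reads to pseudogenes was thus not tested.

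The core members deviated together from library to library. Of the 3 controls, replicate 2 was the highest for 75 of 76 core members and replicate 1 the lowest for 69. NHD13 replicate 2 was above replicate 1 for 75. In the NHD13/MSI2 group, replicate 1 was the highest for 64 core members and replicate 4 the lowest for 73, whereas over all genes tested replicate 4 was the lowest for 37.6%. The 81 genes took 3.99%, 4.67% and 4.27% of the counts in the controls, 4.53% and 5.05% in NHD13, and 5.24%, 4.96%, 4.39% and 1.65% in NHD13/MSI2 replicates 1 to 4. Both NHD13 libraries thus overlapped the range of the controls or lay just above it, and the last NHD13/MSI2 library lay far below all others. The mean share was 4.31% ± 0.343 (SD, n = 3) in control, 4.79% ± 0.365 (SD, n = 2) in NHD13, and 4.06% ± 1.64 (SD, n = 4) in NHD13/MSI2, or 4.86% ± 0.428 (SD, n = 3) without replicate 4. In bulk RNA, fewer cells of a type and less RNA per cell cannot be told apart. The ratio of large to small subunit counts stayed between 1.46 and 1.62 in the 9 libraries, and was highest in replicate 4 (1.62).

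**Figure D1:**
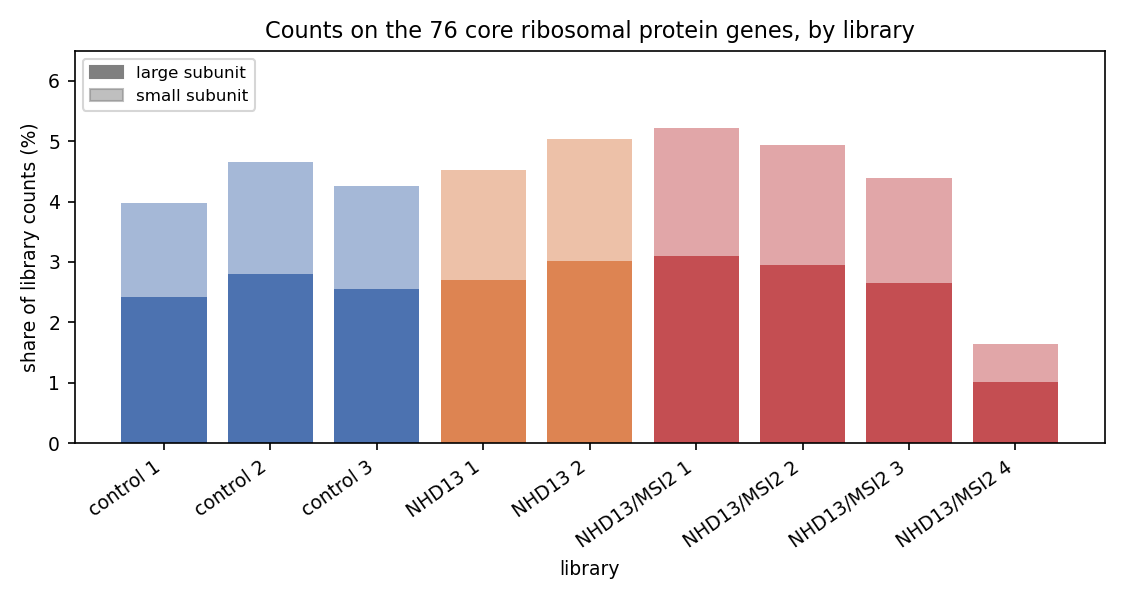
Share of each library's counts (y axis, %) on the 76 core members, with the large subunit as the dark and the small subunit as the pale part of each bar and the groups in blue (control), orange (NHD13) and red (NHD13/MSI2). NHD13/MSI2 replicate 4 holds 1.65% on all 81 genes, against 3.99% to 5.24% in the other 8 libraries.

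NHD13/MSI2 replicate 4 was below all other 8 libraries for 72 of the 76 core members, while 25.4% of all genes tested had their lowest value there. Its core members stood at a median of 32.9% of the mean of replicates 1 to 3, compared with 97.6% over the 10933 genes whose mean was 50 counts or more and 96.6% over the 387 of them that were as abundant as the median core member. The lowest were Rpl36 of the large subunit, at 41.6 CPM against 346, 333 and 263 CPM in replicates 1 to 3 (13.2%), Rps2 of the small subunit, at 86.2 CPM against 597, 597 and 435 CPM (15.9%), and Rps10, at 27.2 CPM against 192, 176 and 142 CPM (16%). Rpsa, which is also known as a laminin receptor, was at 19.2%, and Rplp2, a protein of the acidic stalk that recruits elongation factors, was at 19.1%. Both subunits were alike in this, with medians of 32.1% (46 large) and 35.7% (30 small).

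Of the 4 core members that were not lowest in that library, 3 are described. Rpl5, which binds 5S rRNA and with Rpl11 restrains Mdm2, had 352, 329 and 302 CPM in NHD13/MSI2 replicates 1 to 3 and 380.1 CPM in replicate 4, the highest of all 9 libraries. Rpl11, its partner, was at 29.4% there, with 95.0 CPM against 353, 333 and 285 CPM. Rpl35, which sits at the exit of the peptide tunnel, had 474, 459 and 384 CPM and then 429 CPM in replicate 4 (97.6%). Rps25 had 699, 656 and 567 CPM and then 623 CPM (97.2%). For Rpl5, Rpl35 and Rps25, the annotation gives exon bases shared with a protein-coding gene on the opposite strand (Fam69a, Wdr38 with Arpc5l, and Trappc4 with Ccdc84), and 12 of the 72 core members that were lowest there share exon bases with a protein-coding gene on either strand. Whether counting took account of strand is not given in the sources used here. Of the partners, Trappc4 had 76 CPM in replicate 4 and 61.8 to 82.8 CPM in the other libraries, and Wdr38, whose transcripts hold 59.0% of the words of Rpl35, had at most 4 counts. The part of the overlap in these values was not tested.

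**Figure D2:**
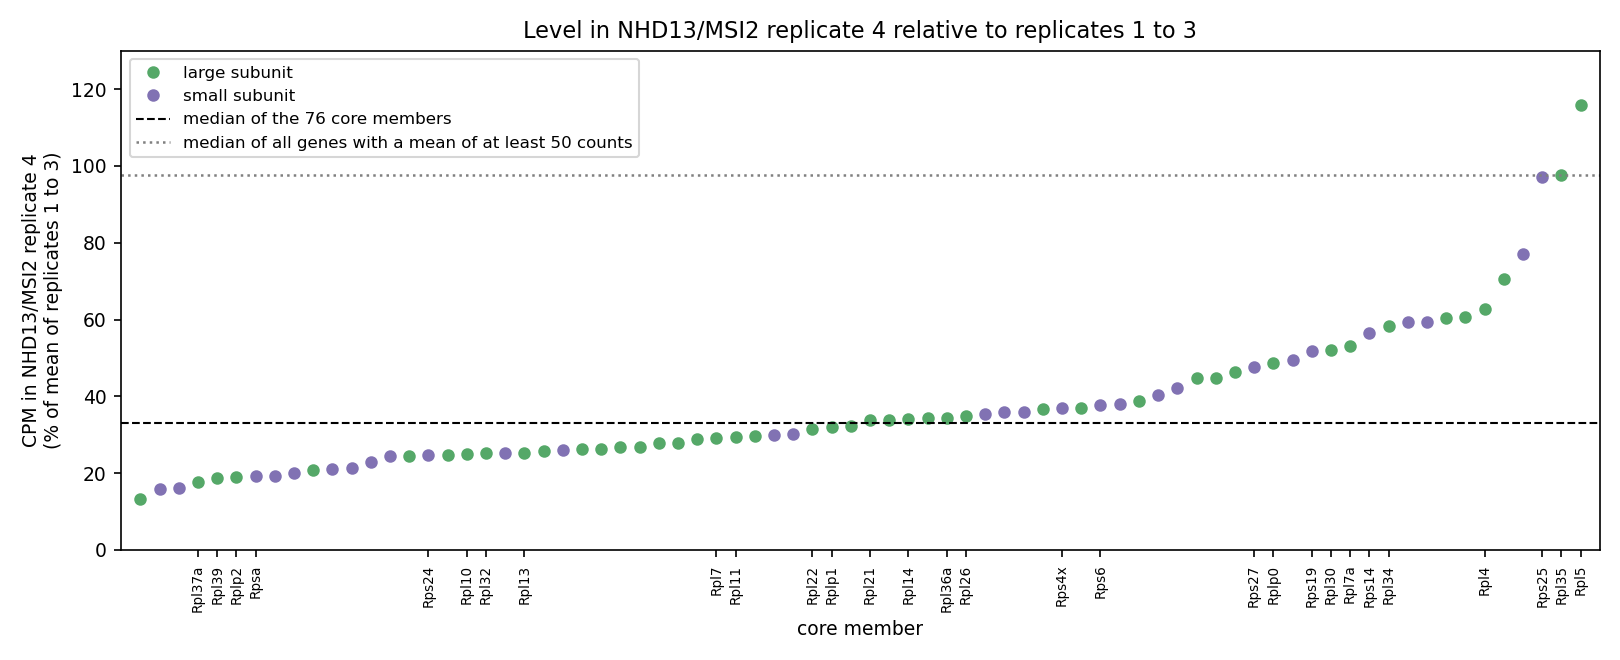
Level of each core member in NHD13/MSI2 replicate 4 (y axis, % of the mean CPM of replicates 1 to 3), ordered along the x axis with some genes named, and with the large subunit in green and the small subunit in purple. Most points lie around the median of 32.9% (dashed line), well under the median of all genes at this depth (97.6%, dotted line), and only Rpl5 exceeds 100%.

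In the same library Actb, cytoskeletal actin, was at 51587 CPM against 10917 to 11646 CPM in replicates 1 to 3, the 100 most abundant genes took 26.8% of the counts against 20.4% to 21.2%, and 12996 genes had a count against 13583 to 14111. The part of these in the ribosomal protein values was not tested. Other translation genes with TOP tracts were low there too. Of 17 such genes 9 were under 50%, with a median of 48.6%; Eef1a1, the factor that brings aminoacyl-tRNA to the ribosome, had 3059 CPM against 12145, 11193 and 10761 CPM in replicates 1 to 3, and Tpt1, a textbook TOP message, 113 CPM against 336, 326 and 241 CPM. The 61 genes of ribosome assembly had a median of 95.6%, with 7 under 50%, and the 77 genes of mitochondrial ribosomal proteins a median of 80.3%, with 10 under 50%, beside 13.4% of all genes. Core members with a TOP-like tract at an annotated start had a median of 27.9% (13 genes, 16% to 97.6%) and those without one 34.3% (43 genes, 15.9% to 116%). Across the 76 core members, Spearman's rho of the ratio was 0.20 with transcript length and 0.13 with the share of words found in other genes. Over 10865 genes, rho with exon length was 0.28. The part of length in the ribosomal protein values of this library was not tested. The summed level of 9 neutrophil markers in replicate 4 (9120 CPM) was within the range of the other NHD13/MSI2 libraries (9077 to 15214 CPM) and above that of the controls (2463 to 4495 CPM), as was that of 7 B cell markers (329 CPM, against 262 to 448 CPM and 46.4 to 58.7 CPM). Of 8 erythroid markers, the 4 adult globin genes had 3 counts or fewer in every library. Most of the neutrophil sum was Mpo, at 8646 CPM in replicate 4, and Mpo alone of the 9 was called higher in NHD13/MSI2 than in control, where 6 of the 9 were below 0 and the median log2 fold change was −1.69. Nearly all of the B cell sum in replicate 4 was Cd79a (177 CPM) and Cd79b (149 CPM). The 6 LSK markers summed to 2504 CPM in replicate 4, 2020 to 2780 CPM in replicates 1 to 3, 2361 to 3154 CPM in NHD13 and 4459 to 5159 CPM in control, and Slamf1, Flt3 and Cd34 were among those lower in NHD13/MSI2 than in control. Since this library moves the median of the core members in 2 of the 3 comparisons, each is given with and without it.

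**Figure D3:**
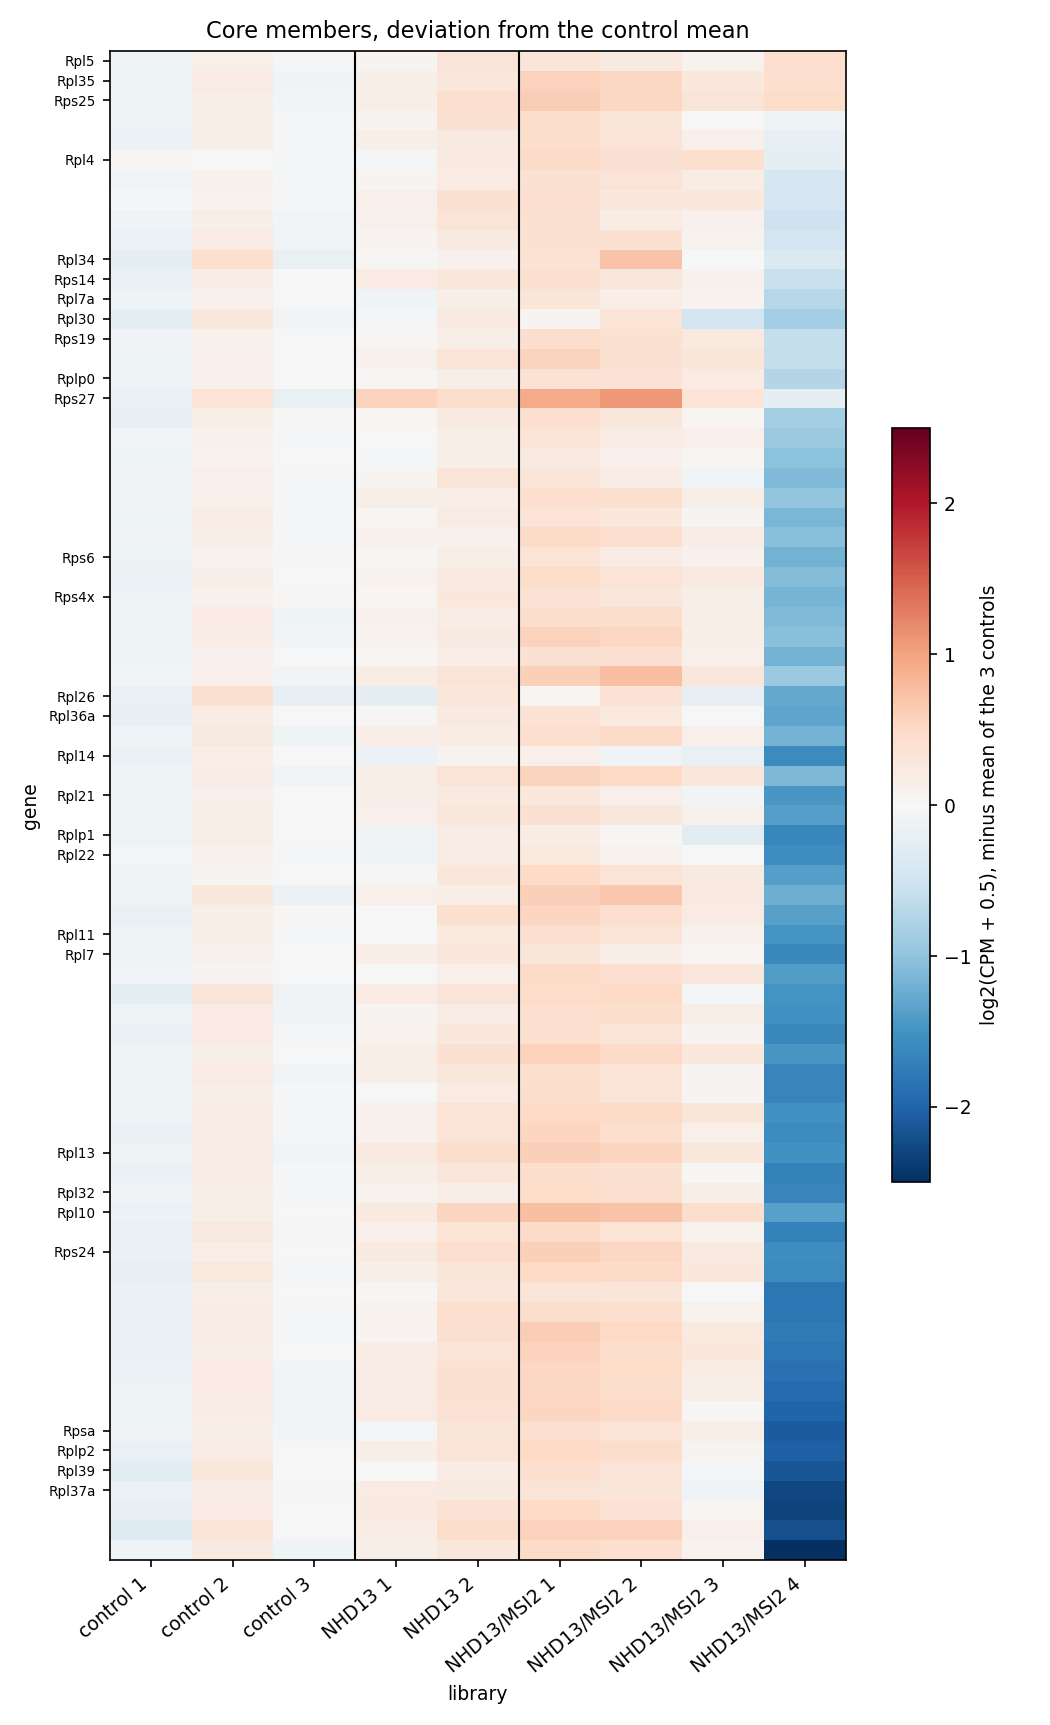
Heat map of the 76 core members (rows, from the highest to the lowest relative level in NHD13/MSI2 replicate 4, with some genes named) in the 9 libraries (columns), as log2(CPM + 0.5) minus the mean of the 3 controls, with red above and blue below. The columns of NHD13 replicate 2 and NHD13/MSI2 replicates 1 and 2 are red for nearly all genes, and that of replicate 4 is blue except at the top.

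The comparison of NHD13 with control asks what the fusion transgene alone did. Of 79 members tested (Rpl10l and Rpl39l had too few counts), 0 passed the quasi-likelihood test of edgeR at a Benjamini-Hochberg adjusted p under 0.01, beside 1.03% of all genes tested (138 of 13355). At an unadjusted p under 0.05 there were 2, beside 13.5% of all genes, and DESeq2 called 2, Rpl3l and Rps4l, beside 4.45%. The core members had a median log2 fold change of 0.18, with 75 of 76 above 0, and the median of all genes was 0.02. Against control replicate 2 alone, the control with Y-linked counts like NHD13, the core median was 0.02 with 44 of 76 above 0, and the median of all genes was 0.03. Without NHD13/MSI2 replicate 4, 1 member (Rps4l) was called beside 1.89% of all genes, DESeq2 called 2 beside 7.47%, and the core median was 0.17. This median was 0.08 on the 79 members without NHD13 replicate 2 and 0.28 without NHD13 replicate 1. Both NHD13 libraries were above all 3 controls for 14 core members (18.4%), beside 18.9% of all genes, so that share was near the background, and below all 3 controls for 0, beside 18.5%. The largest core difference was that of Rps27, with 13.7, 19.5 and 13.4 CPM in control and 23.0 and 20.8 CPM in NHD13 (log2 fold change 0.50 ± 0.37 (SE), adjusted p = 0.688). Rpl10 had 295, 363 and 328 CPM in control and 381 and 472 CPM in NHD13 (0.38 ± 0.48, adjusted p = 0.886). For neither gene did the groups overlap, but neither difference passed the test. Of 6 T cell markers, Lck was called higher in NHD13 than in control, with 36.1 to 44.1 CPM in control and 193 and 192 CPM in NHD13, while Cd3d, Cd3e and Cd3g had at most 15 counts in any library. The part of this in the ribosomal protein values was not tested. Rpl14, with 932, 1183 and 1051 CPM in control and 948 and 1115 CPM in NHD13, was the only core member below 0 (−0.03 ± 0.41, adjusted p = 0.997).

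The comparison of NHD13/MSI2 with control covers the fusion and MSI2 together. With all 9 libraries, 2 of 79 members passed, both of them copies (Rpl3l higher, Rps4l lower), beside 11.0% of all genes tested (1474 of 13355). An unadjusted p under 0.05 was found for 4 members, beside 32.8% of all genes. The core median was 0.07, with 53 of 76 above 0, compared with −0.01 over all genes, and against control replicate 2 alone it was −0.08, with 25 of 76 above 0. Without replicate 4 the core median was 0.32, with 73 of 76 above 0, and that of all genes −0.02. 5 members then passed, beside 15.5% of all genes (2066 of 13305): Rpl10, Rpl4, Rpl9 and Rpl3l were higher and Rps4l was lower. DESeq2 on these 8 libraries called 28 members, 27 of them higher and Rps4l lower, beside 25.8% of all genes. At an adjusted p under 0.05, edgeR's test called 31 (30 higher), beside 29.8% of all genes. At an unadjusted p under 0.05 there were 54, beside 41.2% of all genes. NHD13/MSI2 replicates 1 to 3 were all above the 3 controls for 31 core members (40.8%), beside 22.4% of all genes, and below them for 0, beside 26.7%. With replicate 4 included, the groups did not overlap for 2 core members, Rpl35 and Rps25, beside 15.3% of all genes that were higher in this way. When the libraries were scaled to the ribosomal protein genes themselves, without replicate 4, Rpl3l and Rps4l were called, beside 12.7% of all genes, and no core member was. In the other comparisons scaled in this way, 0 members were called over NHD13 (1.79% of all genes), 0 in NHD13 over control (0.939%) and 1, Rps4l, in the joint test of the 3 groups (8.99%). With all libraries, this scaling gave 1 call, Rps4l, in NHD13/MSI2 over control (3.41%) and in the joint test (1.92%), and 0 over NHD13 (0.524%) and in NHD13 over control (0.112%).

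The 3 core members that passed without replicate 4 differed from control by less than 1.6-fold. Rpl4, a large subunit protein that lines the exit tunnel, had 3537, 3443 and 3354 CPM in control, 3363 and 4049 CPM in NHD13 and 4767, 4475, 4592 and 2896 CPM in NHD13/MSI2. Its first 3 NHD13/MSI2 libraries were above all others and the fourth was below all others. The log2 fold change over control was 0.43 ± 0.09 (SE) without replicate 4 (adjusted p = 0.00681, edgeR's quasi-likelihood test) and 0.28 ± 0.20 with it (adjusted p = 0.381). Rpl9 had 491, 541 and 509 CPM in control, 507 and 561 CPM in NHD13, and 715, 686, 623 and 195 CPM in NHD13/MSI2. It was 0.40 ± 0.09 higher without replicate 4 (adjusted p = 0.00873) and had 0.11 ± 0.37 with it (adjusted p = 0.872). Rpl9 was named after its values were seen, and 93.3% of its words are shared with other genes, above all with Rpl9-ps6. The X-linked gene Rpl10, which helps the subunits join and is mutated in T cell leukaemia, had 551, 539, 445 and 127 CPM in NHD13/MSI2. Without replicate 4 it was higher than control by 0.64 ± 0.13 (adjusted p = 0.00577), and with it the value was 0.34 ± 0.41 (adjusted p = 0.62). None of Rpl4, Rpl9 and Rpl10 passed against control in the fit of all 9 libraries.

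Rpl35 and Rps25, the core members highest in this contrast after Rps27, did not depend on that library. Rps25 had 423, 514 and 437 CPM in control against 699, 656, 567 and 623 CPM (log2 fold change 0.48 ± 0.15, adjusted p = 0.0506). Rpl35 had 294, 370.4 and 299.7 CPM in control against 474, 459, 384 and 429 CPM (0.44 ± 0.15, adjusted p = 0.0631). Neither passed edgeR's test and both passed that of DESeq2, which called 4 members in all, beside 19.4% of all genes. At the other end were Rpl14 (−0.31 ± 0.34) and Rplp1 (−0.27 ± 0.35), and both were near 0 without replicate 4 (−0.04 ± 0.12 and −0.00 ± 0.13).

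The comparison of NHD13/MSI2 with NHD13 is the closest to MSI2 induction, as both groups carry the fusion. NHD13/MSI2 cells also carry the inducible MSI2 and rtTA transgenes, whose presence cannot be told apart from induction here. No member passed in the fit of all libraries (0 of 79, beside 3.17% of all genes tested, 423 of 13355). An unadjusted p under 0.05 was found for 1, beside 21.7% of all genes, and DESeq2 called 0, beside 9.63%. The core median was −0.13, with 62 of 76 below 0, while the median of all genes was −0.03. Without replicate 4 the direction turned. The core median was then 0.15, with 70 of 76 above 0, and the median of all genes was −0.02. Again 0 members passed, beside 4.86% of all genes, with 7 at an unadjusted p under 0.05, beside 28.8%. DESeq2 without replicate 4 called 1, Rpl9, beside 13.4% of all genes. NHD13/MSI2 replicates 1 to 3 were above both NHD13 libraries for 7 core members, or 9.21% (among them Rpl4, Rpl9, Rpl17, Rplp0, Rps19 and Rps29), beside 19.8% of all genes, and below both for 0, beside 23.0%. With library totals as the sole scaling and without replicate 4, the median of the 79 members was 0.00, and that of all genes −0.16. The direction in this comparison also turned without NHD13 replicate 2, where the core median was 0.01 with 41 of 76 above 0 and the median of all genes was 0.02.

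**Figure D4:**
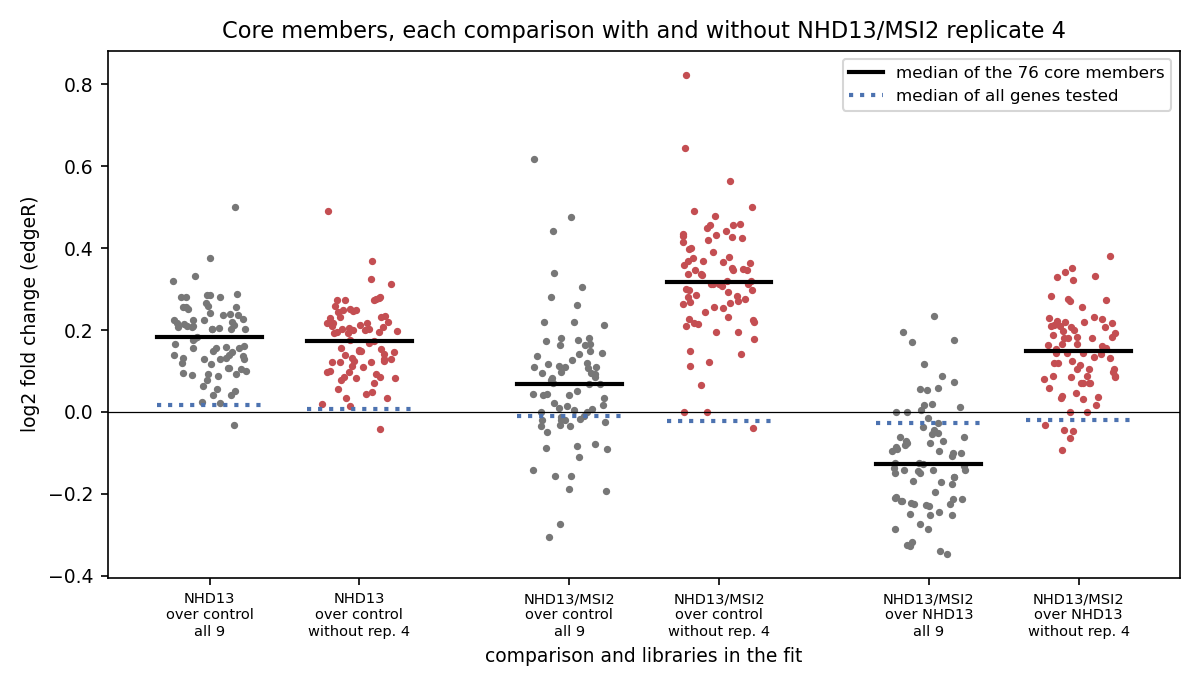
Log2 fold changes (y axis, edgeR) of the 76 core members in the 3 comparisons, each fitted with all 9 libraries (grey points) and without NHD13/MSI2 replicate 4 (red points), with the median of the core members as a black line and that of all genes tested as a dotted blue line. Leaving out the 1 library moves the core median from 0.07 to 0.32 in NHD13/MSI2 over control and from −0.13 to 0.15 in NHD13/MSI2 over NHD13, and leaves NHD13 over control at 0.18 and 0.17.

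Among the genes of inherited and acquired ribosome disease, Rps14 had 1098, 1434 and 1248 CPM in control, 1448 and 1522 CPM in NHD13 and 1662, 1517, 1354 and 854 CPM in NHD13/MSI2. The groups of control and NHD13 did not overlap, yet the log2 fold change of NHD13 over control was 0.24 ± 0.27 (adjusted p = 0.857), and that of NHD13/MSI2 over NHD13 was −0.14 ± 0.26 (adjusted p = 0.812), or 0.04 ± 0.13 without replicate 4 (adjusted p = 0.883). Rps19, the gene most often affected in Diamond-Blackfan anaemia, had 623, 715 and 658 CPM in control, 678 and 740.0 CPM in NHD13 and 897, 863, 786 and 439 CPM in NHD13/MSI2. Without replicate 4, Rps19 differed from control by 0.36 ± 0.09 (adjusted p = 0.0154), which missed the threshold. Rpl22, whose loss favours lymphoid malignancy, had 288, 320.0 and 287 CPM in control, 276 and 338 CPM in NHD13 and 354, 315, 301 and 102 CPM in NHD13/MSI2, and its groups overlapped in every comparison (adjusted p = 0.802 over control). Rps6, the substrate of the S6 kinases, had 716 to 832 CPM in control, 802 and 869 CPM in NHD13 and 985, 895, 838 and 342 CPM in NHD13/MSI2 (−0.03 ± 0.31 over control, adjusted p = 0.959). Of the 18 members linked to Diamond-Blackfan anaemia, 0 passed edgeR's test in any of the 3 comparisons with or without replicate 4, beside 1.03% to 15.5% of all genes. DESeq2 called Rpl35 of them higher in NHD13/MSI2 than in control with all libraries, beside 19.4% of all genes. Without replicate 4 it called Rpl35, Rps7, Rps19, Rps24, Rps26, Rps27, Rps28 and Rps29 higher, beside 25.8%. By edgeR, the medians of the 18 members were 0.21 in NHD13 over control and 0.10 in NHD13/MSI2 over control, or 0.36 in the latter without replicate 4, beside 0.18, 0.07 and 0.32 for all core members.

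Of the stalk proteins, Rplp0 anchors the others on the ribosome and had 1646, 1921 and 1745 CPM in control, 1811 and 1958 CPM in NHD13, and 2258, 2265, 2047 and 1068 CPM in NHD13/MSI2. Against control its value was 0.31 ± 0.08 without replicate 4 (adjusted p = 0.0233) and 0.11 ± 0.25 with it. None of the 4 X-linked members, Rpl10 among them, passed edgeR's test in NHD13 over control, beside 1.03% of all genes. Rps4x had 741, 870.5 and 821 CPM in control, where the middle library is the one with Y-linked counts, and 839.5 and 973 CPM in NHD13. Rpl36a and Rpl39 had log2 fold changes of 0.12 and 0.09 in NHD13 over control.

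Among the copies, Rpl3l is a paralog of Rpl3 that is made in muscle, and it had 5, 9 and 3 counts in control, 97 and 91 in NHD13, and 31, 77, 120 and 24 in NHD13/MSI2 (chr17:24727820-24736143, GRCm38, plus strand). Every NHD13 and NHD13/MSI2 library was above every control. None of its 50-base words occurred in transcripts of another gene. In CPM this was 0.25 ± 0.16 (SD, n = 3), 4.48 ± 0.02 (SD, n = 2) and 3.11 ± 1.88 (SD, n = 4). Rpl3l rose in NHD13/MSI2 over control by 3.63 ± 0.68 on the log2 scale (adjusted p = 0.00532), or 3.86 ± 0.65 without replicate 4 (adjusted p = 0.00284). In NHD13 over control it had 4.15 ± 0.74 and missed the threshold (adjusted p = 0.0191), and the difference of NHD13/MSI2 from NHD13 was −0.52 ± 0.63 (adjusted p = 0.698). Rpl3 itself had 2107 to 2291 CPM in control, far above its copy.

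Rps4l moved the other way. It is annotated as a transcribed processed pseudogene (chr6:148354656-148355598, GRCm38, plus strand) within Tmtc1, which is on the opposite strand. Control libraries had 166, 69 and 417 counts, both NHD13 libraries had 0, and NHD13/MSI2 had 12, 3, 7 and 0. Every control was above every other library, but the controls differed widely among themselves. Against a floor of 3 counts per library, Rps4l in NHD13 was at least 62.3-fold below the control mean of 8.91 CPM. Control replicate 2, the control with Y-linked counts like NHD13, had 3.27 CPM, against 6.79 and 16.7 CPM in replicates 1 and 3. The bound is thus smaller against replicate 2 alone. In NHD13 over control, Rps4l passed edgeR's test without NHD13/MSI2 replicate 4 (adjusted p = 0.00962) but not with it (adjusted p = 0.0278). In NHD13/MSI2 it fell by 4.97 ± 0.92 on the log2 scale (adjusted p = 0.00639). Tmtc1 had 0.56 to 0.78 CPM in control, 0.64 and 0.74 CPM in NHD13 and 6.83, 2.34, 4.16 and 6.75 CPM in NHD13/MSI2, so Tmtc1 was higher in NHD13/MSI2 where Rps4l was lower, and the part of either in the other's counts was not tested. The X-linked parent Rps4x gave no such pattern. Of the other copies, Rps27l was detected throughout (86.5, 103 and 98.7 CPM in control, 106 and 129.8 CPM in NHD13, 113, 108, 88.5 and 55 CPM in NHD13/MSI2) without passing in any comparison, and Rpl39l and Rpl10l, which are known from testis, had at most 4 counts and 1 count in a library. The calls of Rpl3l and Rps4l in NHD13/MSI2 over control were both lost when any 1 control, or NHD13/MSI2 replicate 2 or 3, was left out. Across the alternatives, Rpl3l had adjusted p-values between 4.97e-07 and 0.212, and Rps4l between 1.03e-07 and 0.304.

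**Figure D5:**
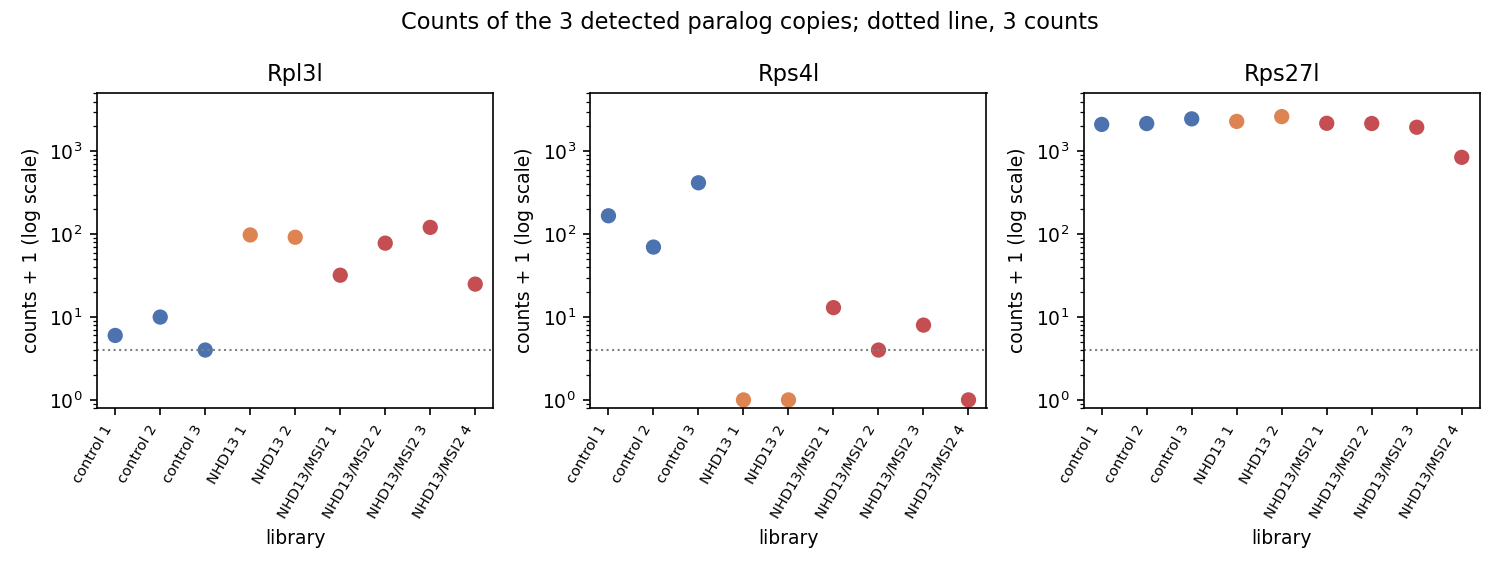
Counts plus 1 (y axis, log scale) of Rpl3l, Rps4l and Rps27l in the 9 libraries, with control in blue, NHD13 in orange, NHD13/MSI2 in red and a dotted line at 3 counts. Rpl3l is at 3 to 9 counts in control and 24 to 120 in the other libraries, Rps4l at 69 to 417 in control and 0 to 12 in the others, and Rps27l is high in every library.

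Few genes of the wider machinery of ribosome production passed the test, beside 3.17% of all genes in NHD13/MSI2 over NHD13, 11.0% in NHD13/MSI2 over control and 1.03% in NHD13 over control. Of 61 ribosome assembly genes, 0 passed in any comparison, with medians of 0.04 in NHD13/MSI2 over NHD13, 0.06 in NHD13/MSI2 over control and 0.02 in NHD13 over control. Of 13 tested genes of RNA polymerase I, Znrd1, a subunit also known as Polr1h, alone passed, and it fell in NHD13/MSI2 over NHD13 by 1.27 (adjusted p = 0.0053) and over control by 1.36 (adjusted p = 0.00083) on the log2 scale. Its levels were 25.7 to 27.6 CPM in control, 21.8 and 27.9 CPM in NHD13, and 9.36, 11.2, 11.6 and 9.08 CPM in NHD13/MSI2, with no overlap. Of 77 mitochondrial ribosomal protein genes 1 passed in NHD13/MSI2 over control (Mrpl48, lower) and 0 in the other comparisons; without replicate 4, 57 of the 77 were above 0 over control, with a median of 0.09 beside −0.02 for all genes. Of 17 other TOP translation genes 0 passed in any comparison with all libraries. Without replicate 4, 2 of the 17 did in NHD13/MSI2 over control (Eef1a1 and Eif3k, both higher), beside 15.5% of all genes. In that fit 14 of the 17 were above 0, and their median was 0.34 beside −0.02 for all genes.

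Among 15 genes that act on ribosome production from above, 1 was higher and 3 were lower in NHD13/MSI2 over control, beside 11.0% of all genes called, and 2 were lower over NHD13, beside 3.17%. The same genes were called in both comparisons without replicate 4, beside 15.5% of all genes over control and 4.86% over NHD13. Mycn, a Myc family transcription factor that drives ribosomal genes, had 41.1, 24.8 and 38.6 CPM in control, 132 and 60.002 CPM in NHD13, and 4.19, 5.04, 8.82 and 2.40 CPM in NHD13/MSI2. It fell by 4.22 on the log2 scale relative to NHD13 (adjusted p = 0.00132) and fell by 2.76 relative to control (adjusted p = 0.00198). Myc was far more abundant and had 529 to 808 CPM in control, 311 and 773 CPM in NHD13 and 573 to 625 CPM in NHD13/MSI2 without a call. The others were ribosomal S6 kinase genes of the RSK family. Rps6ka6 had 143, 62 and 220 counts in control, 473 and 113 in NHD13 and 0, 0, 0 and 7 in NHD13/MSI2, and fell in both comparisons (adjusted p = 0.00716 over NHD13 and 0.00567 over control). Rps6ka3 fell relative to control by 1.30 (adjusted p = 0.000998), and Rps6ka2 rose relative to control by 2.46 (adjusted p = 0.00582). Of 8 genes for fused or related ribosomal proteins, Rsl24d1, a factor of large subunit assembly, alone passed, and it rose in NHD13/MSI2 over control by 0.81 on the log2 scale (adjusted p = 0.0062). It had 241, 229 and 224 CPM in NHD13/MSI2 replicates 1 to 3 and 282 CPM in replicate 4, so unlike most core members it was not low in that library. Fau, which encodes Rps30 fused to a ubiquitin-like protein, had 315, 297, 266 and 87.9 CPM in NHD13/MSI2. It was called higher than control without replicate 4, beside 15.5% of all genes. The joint test of the 3 groups called 2 members, Rpl3l and Rps4l, beside 8.90% of all genes (1189 of 13355), and Rpl3l and Rps4l again without replicate 4, beside 13.1%. DESeq2 called 2 members in the joint test, beside 19.8% of all genes, and 16 without replicate 4, beside 26.6%.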

How the data were processed

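Per the labels, the authors deposited raw counts, 1 whole number per gene symbol and library. The submitters' processing notes name STAR, HTSeq, DESeq and the build mm9. The 2 last rows of the table carry no name, and the names after 11 symbols that a spreadsheet turned into dates stand 2 rows too high, so 11942 names were moved down 2 rows and 13 March rows were left out. With this, 0 of the 76 core members had a mean under 50 counts, compared with 8 before. Library totals were 19242153 to 23013493 counts, so 3 counts are 0.13 to 0.156 CPM; floors cover counting error only. Groups came from the labels. R 4.3.3, edgeR 4.0.16 (filterByExpr, TMM, quasi-likelihood, all 9 libraries, adjusted p under 0.01) and DESeq2 1.42.0 were used, on simulated data with 200 genes changed 4-fold in NHD13/MSI2 over NHD13 (13076 genes) recovering 62.5% and 85.5%, with 1 and 23 false calls. Positions and lengths are from GENCODE M21 on GRCm38, where all 81 members were found, and describe the genes only. Members and gene lists were chosen with earlier results of these data known. Named members were those past the threshold, the 5 furthest each way in a comparison with under 5 calls (mean of at least 50 counts), disease, stalk, X-linked and paralog members, the 3 highest and lowest per length and those with 3 counts or fewer throughout. Rpl9, Rpl36, Rps2, Rps10, Rpl17, Rps29 and the genes outside the lists were added after their values were seen, and some results are not reported here. Alternatives covered the test, scaling, filter, threshold, samples, replicate block, length, names and controls.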

Additional observations from a re-analysis of the deposited data

Results flagged for a closer look

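Within the 4 NHD13/MSI2 libraries, the value of Rpl4 in replicate 4 stood apart from the others. The gap from 2896 CPM to the next lowest library, 4475 CPM, was 0.844 of the whole range, above Dixon's 95% critical value for 4 samples. Rpl4 was the sole core member of 76 past this limit, beside 15.8% of all genes tested, and chance alone puts about 1 group in 20 past it. For 75 of the 76 core members replicate 3 was the lowest of replicates 1 to 3. The median coefficient of variation of the core members within the group was 42.1% with replicate 4 and 11.2% without it.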

How the results depend on the processing

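For NHD13/MSI2 over control, 2 members were called with all libraries. DESeq2 called 4, scaling to the ribosomal protein genes 1, and the sole use of control replicate 1 or of control replicate 2 left 0. Leaving out 1 library at a time gave 0 to 5, with 5 without NHD13/MSI2 replicate 4 and 0 without any 1 control or without NHD13/MSI2 replicate 2 or 3. Without replicate 4 and with a second change, chosen after seeing the data, the counts were 7 (only the groups compared), 28 (DESeq2), 5 (RLE factors) and 5 (TMM factors without ribosomal protein rows). For NHD13 over control, 0 were called, and 2 at an adjusted p under 0.05 (2.89% of all genes), 2 by DESeq2 with or without replicate 4, and 0 to 1 with 1 library left out. The 1 was found without replicate 4, also with RLE factors, TMM factors without ribosomal protein rows or library totals. For NHD13/MSI2 over NHD13, 0 were called with every library left out in turn, and 1 by DESeq2 without replicate 4. The joint test called 2, but 1 with upper-quartile factors, with library totals, and scaled to the ribosomal protein genes with or without replicate 4, 0 with control replicate 1 or 2 as the only control, 0 to 2 with 1 library left out, and 16 by DESeq2 without replicate 4. The libraries were not treated as paired by replicate number. The deviations of same-numbered libraries correlated at −0.152 to 0.212, and those of other pairs at −0.212 to 0.182. The deviations of the 2 NHD13 libraries mirror each other, and such correlations cannot exclude pairing. With the replicate block, in which NHD13/MSI2 replicate 4 has no partner, 0, 2, 0 and 1 members were called (joint test last), the 2 being Rpl10 and Rps4l.

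The median over the 79 members ranged from −0.25 to 0.14 in NHD13/MSI2 over NHD13 with 1 library left out, from −0.09 to 0.31 in NHD13/MSI2 over control and from 0.08 to 0.28 in NHD13 over control. Its sign turned in the first comparison without replicate 4 (0.14), with the replicate block (0.19) and without NHD13 replicate 2 (0.01), and in the second without NHD13/MSI2 replicate 1 (−0.09) or 2 (−0.05), without control replicate 1 (−0.01), with control replicate 2 as the only control (−0.08) and with library totals (−0.11), a scaling that put the median of all genes at −0.22. In the third comparison the median was 0.03 with control replicate 2 as the only control, and stayed above 0 in every setting other than scaling to the ribosomal protein genes, which sets all 3 medians near 0 by construction. With the trend of transcript length removed, the medians of the members in the 3 comparisons were −0.09, 0.02 and 0.12, beside 0.01, 0.02 and 0.00 for all genes. Of 2782 values of named members under the alternatives, 2736 kept their side of the threshold, 16 lost a call, 30 gained one and 0 reversed, while 366 turned sign with no call on either side. With the names as deposited, 2 members were called in NHD13/MSI2 over control, and the share of counts on members in control replicate 1 was 3.06% in place of 3.99%.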
